A study of Homo sapiens with 3 samples.

Results

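RUNX1, RUNX2 and RUNX3 were described as loci bound by the fusion protein HA-PSF-TFE3. They were taken as windows on hg19 that hold each gene with about 10 kb on either side, namely chromosome 21 from 36150 to 36432 kb for RUNX1, chromosome 6 from 45286 to 45529 kb for RUNX2 and chromosome 1 from 25216 to 25302 kb for RUNX3. A member is a summit, the single base of highest enrichment within a peak of ChIP-seq reads, that starts inside a window. There were 30 members among 73067 summits, 20 of 44983 in replicate 8 and 10 of 28084 in replicate 9. The windows were set from gene positions and not from the summits.

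HK-2 is an immortalised human cell line from the proximal tubule of the kidney, and the cells used here carried a doxycycline-inducible HA-PSF-TFE3 construct. PSF is another name of SFPQ, and the fusion joins it to TFE3, a basic helix-loop-helix transcription factor. All cells received 0.2 µg/ml doxycycline for 24 h, and chromatin was recovered through the HA tag. The group held 2 ChIP libraries, replicates 8 and 9, which the study describes as independent clones, so clone and library cannot be told apart. The remaining library was input DNA from cells given the same treatment. It served as background for peak calling, and no list of its own was analysed here. No uninduced cells were compared, and expression of the RUNX genes was not measured in these data. The title and labels name PSF-TFE3, whereas the design text names PRCC-TFE3, and the labels were followed. Because the ChIP libraries form a single group, conditions could not be tested against each other, and every value below is a description.

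RUNX proteins bind DNA through the Runt domain, together with the partner CBFB, and each gene can be read from a distal and a proximal promoter. RUNX1 is a master regulator of blood stem cell formation and also acts in epithelia. RUNX2 directs bone-forming cells, and RUNX3 acts in lymphocytes and sensory neurons. TFE3 and its relatives recognise E-box sequences such as CACGTG. The question was how densely the fusion occupied each gene, where along it, and whether both libraries placed summits at the same bases.

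Sequence under the summits could not be shown, because the genome at hand is hg38 and the lists are not on that build. The promoters listed for these genes in RefSeq (GRCh38.p14) were searched instead, in the 250 bases before each start and on both strands. The table lists 1 start for RUNX1, 2 for RUNX2 and 2 for RUNX3. The other RUNX1 promoter was therefore not searched, and the absence of matches in RUNX1 covers 1 promoter only. The E-box CACGTG was in none of the 5, and was in 6.34% of the 35116 promoters of the table. The related E-box CATGTG or its complement CACATG was in the more 5′ start of RUNX2 alone, compared with 9.42% of all promoters. The AP-1 sequence TGACTCA or TGAGTCA was in that same promoter, compared with 4.20% of all. The RUNX sequences TGTGGT and TGCGGT, or their complements ACCACA and ACCGCA, were present in the more 5′ starts of RUNX2 and RUNX3, with 2 matches each, compared with 16.3% of all promoters. These 2 promoters are shown because they hold every match found, with the matches in capitals. In RUNX2 the E-box overlapped a RUNX match, in the run ACCACATG. The GC content was 41.6% in the RUNX2 promoter shown and 67.6% in that of RUNX3, and from 71.2% to 78.4% in the other 3. A match is a run of letters and not evidence of binding.

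RUNX2, plus strand, chr6:45328080-45328329 (GRCh38.p14): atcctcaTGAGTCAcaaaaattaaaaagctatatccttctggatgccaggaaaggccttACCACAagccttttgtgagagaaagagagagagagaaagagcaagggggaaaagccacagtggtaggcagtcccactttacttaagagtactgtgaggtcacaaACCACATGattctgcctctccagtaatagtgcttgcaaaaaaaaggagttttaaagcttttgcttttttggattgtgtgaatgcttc

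RUNX3, minus strand, chr1:24965011-24965260 (GRCh38.p14): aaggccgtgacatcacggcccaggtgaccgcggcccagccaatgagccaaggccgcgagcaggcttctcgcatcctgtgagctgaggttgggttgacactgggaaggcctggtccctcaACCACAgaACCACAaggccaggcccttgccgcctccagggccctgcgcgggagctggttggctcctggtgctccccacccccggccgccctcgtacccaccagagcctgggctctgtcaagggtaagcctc

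RUNX3 was the locus most densely occupied in both libraries, and the libraries differed most there. It held 7 summits in replicate 8 and 2 in replicate 9, a mean of 4.5 ± 3.54 (SD, n = 2). Per 100 kb this was 8.14 in replicate 8 and 2.33 in replicate 9, beside 1.47 and 0.919 over the whole lists. When every chromosome was cut into stretches of 86 kb, 3.61% of 35539 stretches held at least 7 replicate 8 summits, and 18.5% held at least 2 replicate 9 summits. Empty stretches, including those without assembled sequence, made up 55.5% and 63.9% of these.

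RUNX1 held 10 summits in replicate 8 and 5 in replicate 9, a mean of 7.5 ± 3.54 (SD, n = 2), or 3.55 and 1.77 per 100 kb. At least as many summits were found in 14.0% of 282 kb stretches for replicate 8 and in 20.3% for replicate 9. Chromosome 21 as a whole held 0.942 and 0.753 summits per 100 kb up to its last summit, a length that includes unassembled sequence. RUNX1 was thus above its chromosome in both libraries. Its ratio of replicate 8 to replicate 9 summits was 2, whereas that of chromosome 21 was 1.25 and that of the full lists 1.60.

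RUNX2 was the sparsest of the 3 genes, with 3 summits in each library (SD 0, n = 2) and 1.23 per 100 kb. At least 3 summits were found in 42.3% of 243 kb stretches for replicate 8 and in 30.5% for replicate 9. The replicate 8 value was below the 1.58 per 100 kb of chromosome 6, and the replicate 9 value was above its 0.943. The order RUNX3, RUNX1, RUNX2 by density held in each library. In replicate 9 the place of RUNX3 rests on 2 summits, at 2.33 per 100 kb beside 1.77 for RUNX1. Between RUNX1 and RUNX2 in replicate 9 the gap was 5 summits against 3, and between RUNX3 and RUNX1 the gap between the means was smaller than the spread of RUNX3 over libraries, at 5.23 ± 4.11 and 2.66 ± 1.25 per 100 kb (SD, n = 2).

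**Figure D1:**
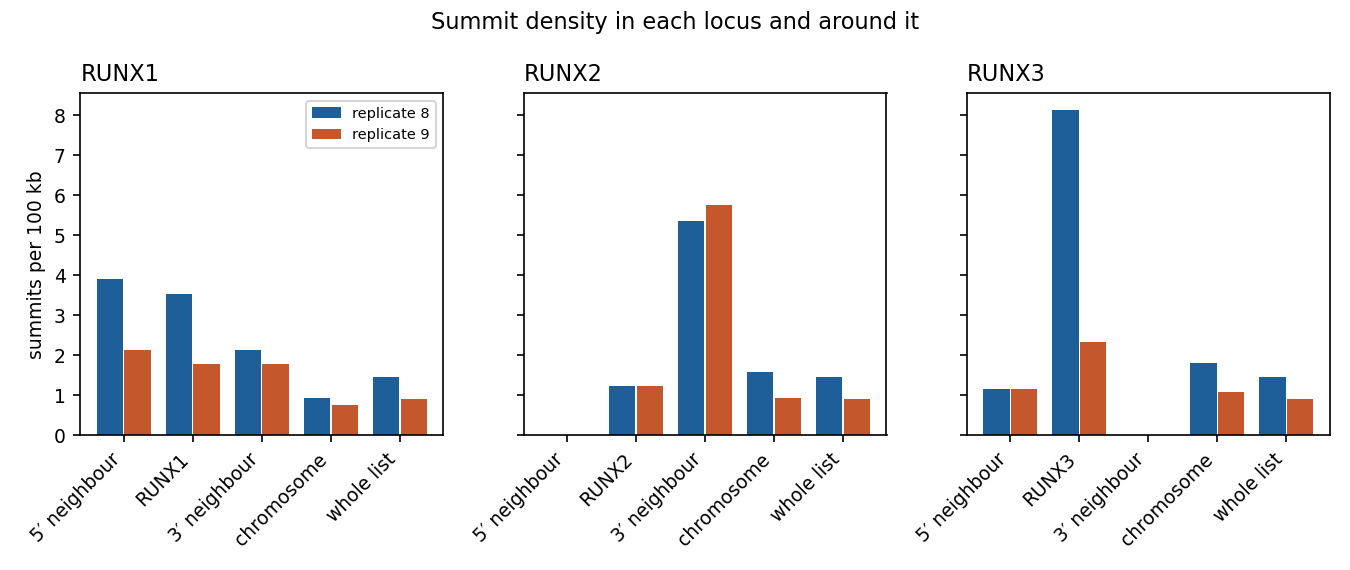
Summits per 100 kb (y axis) in each RUNX window, in the windows of equal length on its 5′ and 3′ sides, on its chromosome and over the whole list, for replicate 8 (blue) and replicate 9 (orange). RUNX3 reached 8.14 in replicate 8 and 2.33 in replicate 9, and the RUNX2 window had 1.23 in both, between an empty 5′ neighbour and a 3′ neighbour at 5.35 and 5.76.

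**Figure D2:**
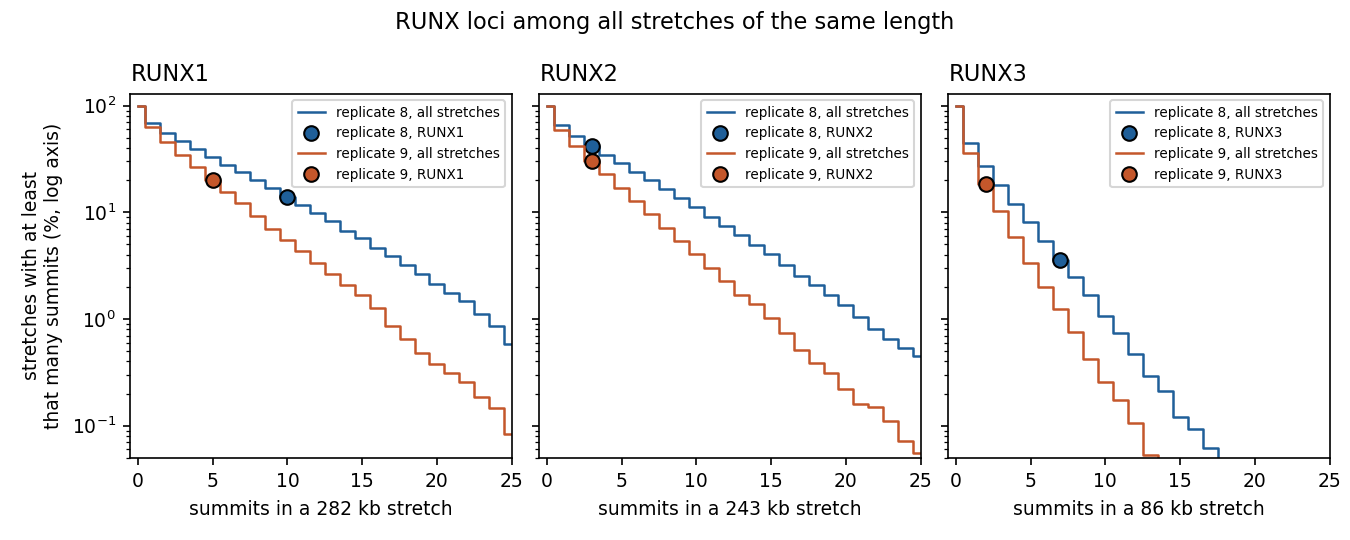
Percent of all stretches of a window's length that hold at least a given number of summits (log y axis), with each RUNX locus marked by a dot, for replicate 8 (blue) and replicate 9 (orange). The RUNX3 dot of replicate 8 sits at 3.61%, and the other 5 dots lie between 14.0% and 42.3%.

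The surroundings of the genes differed. The 282 kb on the 5′ side of RUNX1 held 11 and 6 summits in replicates 8 and 9, and the 282 kb on its 3′ side held 6 and 5. RUNX1 itself, with 10 and 5, was below its 5′ neighbour in both libraries, above its 3′ neighbour in replicate 8 and level with it in replicate 9. The 86 kb on the 5′ side of RUNX3 held 1 summit in each library, and the 86 kb on its 3′ side held none in either. Around RUNX2 the 243 kb on the 5′ side held none in either library, whereas the 243 kb on the 3′ side held 13 and 14.

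Along RUNX1, summits no more than 10 kb apart formed 5 groups in replicate 8 and 4 in replicate 9, and left most of the 5′ part of the gene empty. Positions below are on hg19, counted from 1, and the score of a summit is the caller's −log10 q-value within its own library. The highest-scoring site lay at 36208509 in replicate 8, with a score of 22.6, and at 36208566 in replicate 9, with a score of 26.5. It ranked within the top 14.0% of the replicate 8 list and the top 19.3% of the replicate 9 list. The shared site closest to the 3′ end of the gene lay at 36180630 and 36180553, with scores of 15.7 and 15.9. A weaker one lay at 36236428 and 36236395, with scores of 8.93 and 5.73. These 3 sites were the only RUNX1 summits of the 2 lists within 200 bp of each other. All of them lay between 195.6 and 251.4 kb from the 5′ edge of the window.

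Beside these shared sites each library had summits of its own. In replicate 8, a summit at 36180228 with a score of 8.43 lay 325 bp from the nearest replicate 9 summit, and another at 36209248 with a score of 5.40 lay 682 bp away. In replicate 9, a summit at 36237969 with a score of 7.86 lay 1541 bp from the nearest of replicate 8. A further site was just beyond the sharing distance, at 36260597 in replicate 8 (score 7.70) and 36260395 in replicate 9 (score 3.61), which are 202 bp apart. Next to it, replicate 8 had a weak summit at 36262365 with a score of 3.11.

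The 5′ end of RUNX1 was occupied in replicate 8 alone. Its 3 summits at 36420586, 36420928 and 36421601 had scores of 3.43, 5.18 and 8.01, and lay 11.4, 11.1 and 10.4 kb from the 5′ edge of the window, next to where the 10 kb flank meets the gene. The nearest replicate 9 summit was at least 129738 bp away, outside the window. Their place among all replicate 8 summits was from 50.4% to 89.4% of the way down the list by score. Between this 5′ end and the site at 36262365, replicate 8 had no summit over 158.2 kb, which is 56.1% of the window. Gaps at least that long made up 9.04% of the gaps between neighbouring replicate 8 summits, whose median was 15.6 kb. In replicate 9 the empty stretch ran on past the window, over 290.9 kb from 36260395 to 36551339, and 8.42% of its gaps were as long. Both shares count gaps, and long gaps cover more of the genome than their number shows.

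RUNX2 was occupied near the middle of its window in both libraries, and no summit of either lay near its 5′ end. The strong site lay at 45413678 in replicate 8, with a score of 30.2, and at 45413761 in replicate 9, with a score of 8.54. The replicate 8 score was the highest of all 30 members and ranked within the top 6.98% of its list, but the replicate 9 summit ranked at 57.8% of its own. The ranks differed by -50.8 percentage points (replicate 8 minus replicate 9), and a difference of that size or larger in either direction was found in 5.45% of the 21518 pairs of summits over the whole lists. The other place held weak summits only, at 45388374 and 45389129 in replicate 8, with scores of 5.60 and 5.15, and at 45390690 in replicate 9, with a score of 4.13. The closest of these were 1561 bp apart. Replicate 9 had in addition a summit at 45528249 with a score of 5.10, within the 3′ flank and less than 1 kb from the edge of the window.

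The first 102.4 kb of the RUNX2 window held no summit of replicate 8 and the first 104.7 kb none of replicate 9. That stretch includes the place where the gene begins. The last summits before it lay at 45018523 and 45018654, which left gaps of 369.9 and 372.0 kb. Gaps at least as long made up 3.24% of those in the replicate 8 list and 6.17% of those in the replicate 9 list. These shares count gaps, and long gaps cover more of the genome than their number shows. Of 243 kb stretches, 33.4% held no replicate 8 summit and 40.4% no replicate 9 summit, including those without assembled sequence. The promoter of RUNX2 printed above, with its E-box and AP-1 letters, is given on another build and was not placed among these summits. On that build it ends at 45328329, and the other RUNX2 promoter listed ends at 45422274. By that distance from where the gene begins, the other promoter falls near the weak summits from 45388374 to 45390690. This rests on the distance alone, since no start was placed on hg19. The promoters listed for RUNX1 and RUNX3 were not set against summits in this way, so the RUNX2 case is not a result about promoters of these genes.

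In RUNX3 most summits gathered at 1 place toward the 3′ end, where both libraries had their strongest signal. Replicate 8 had 4 summits there, at 25237590, 25238800, 25239699 and 25241017, with scores of 15.0, 4.51, 12.0 and 22.3. Replicate 9 had 2 there, at 25237505 with a score of 25.2 and at 25240784 with a score of 9.09. The 4 replicate 8 summits filled the stretch from 61.0 to 64.4 kb from the 5′ edge of the window, and those of replicate 9 the stretch from 61.2 to 64.5 kb. The order of the outer summits by score differed between libraries. In replicate 8 the one at 25241017 was the stronger, and in replicate 9 the one at 25237505.

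Only the pair at 25237590 and 25237505, 85 bp apart, was within the sharing distance. The summits at 25241017 and 25240784 were 233 bp apart and were therefore counted as not shared. Between these pairs, the replicate 8 summits at 25239699 and 25238800 lay 1085 and 1295 bp from the nearest replicate 9 summit. The RUNX3 summits outside this place were weak and of replicate 8 alone. Those at 25276243 and 25278947 had scores of 4.98 and 3.28, and that at 25293507, within the 5′ flank, had a score of 6.43. They lay from 35459 to 52723 bp from the nearest replicate 9 summit.

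**Figure D3:**
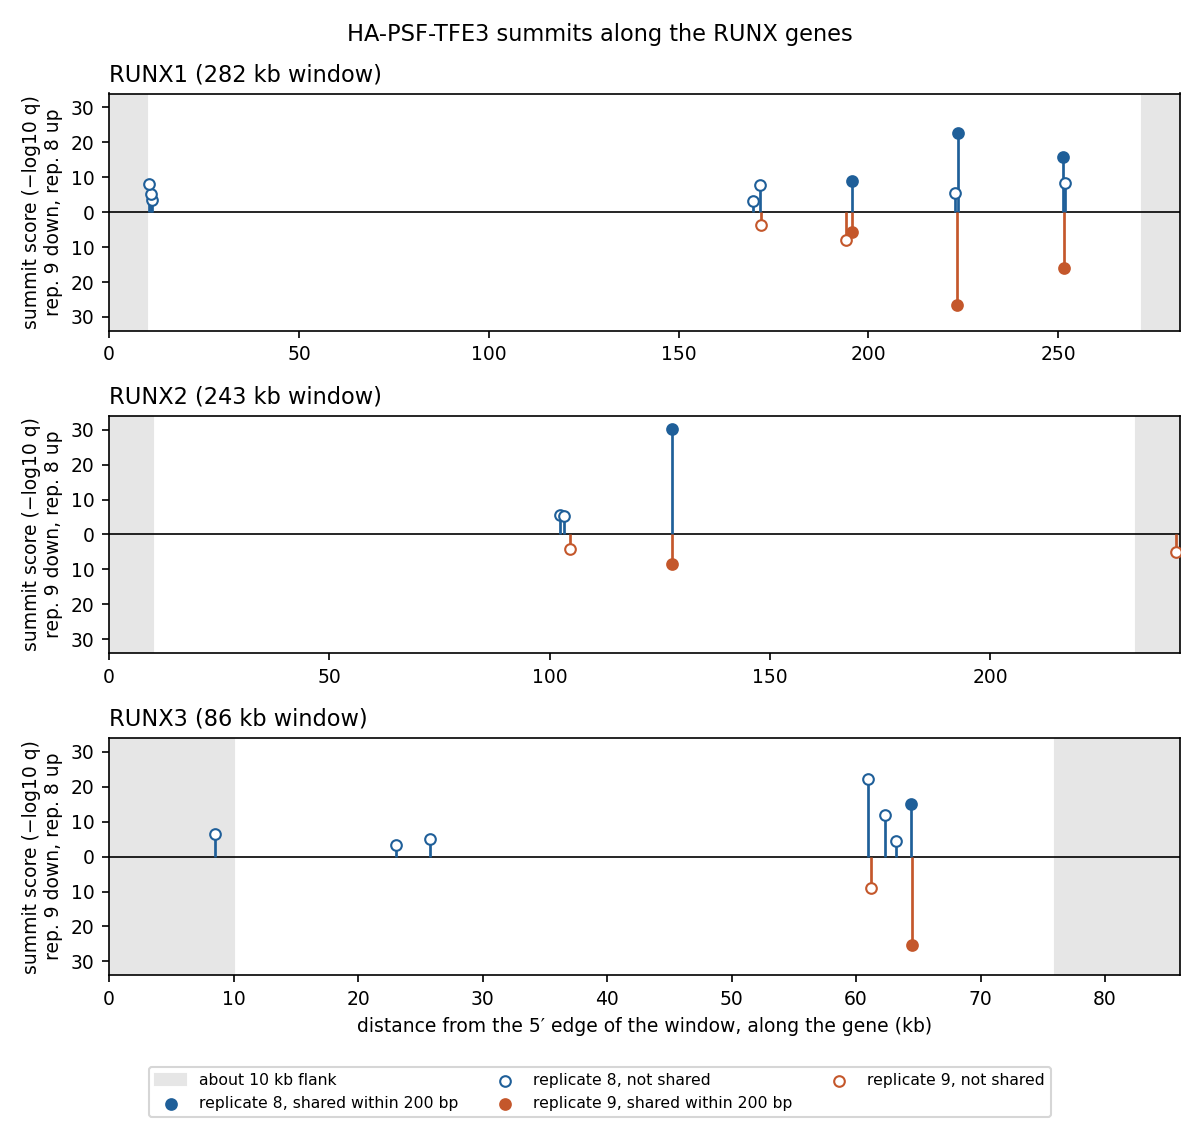
Summits of replicate 8 (up, blue) and replicate 9 (down, orange) along the 3 RUNX windows, with score (−log10 q) on the y axis and distance from the 5′ edge of the window in kb on the x axis. Filled points have a summit of the other library within 200 bp, and grey marks the flanks of about 10 kb. RUNX1 summits lie at its 5′ end in replicate 8 only and from 169.6 kb onward in both, RUNX2 summits start at 102.4 kb, and 4 of 7 and 2 of 2 RUNX3 summits lie between 61.0 and 64.5 kb.

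When the windows were cut into bins of 10 kb from the 5′ edge, summits filled 6 of 29 RUNX1 bins in replicate 8 and 4 of 29 in replicate 9. They filled 2 and 3 of 25 RUNX2 bins, and 3 and 1 of 9 RUNX3 bins. Over the whole genome 10.5% of 10 kb bins held a replicate 8 summit and 7.35% a replicate 9 summit. The fullest RUNX1 bin of replicate 8 was that from 10 to 20 kb, with its 3 summits at the 5′ end, and that of replicate 9 was from 190 to 200 kb, with 2. Every other RUNX1 bin held at most 2. In RUNX3 the bin from 60 to 70 kb was the fullest in both libraries, with 4 and 2 summits. No RUNX2 bin held more than 2.

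Sharing was taken as a summit of the other library within 200 bp. In replicate 8 it was found for 3 of 10 RUNX1 summits, 1 of 3 RUNX2 summits and 1 of 7 RUNX3 summits, together 5 of 20 (25%, 95% Clopper-Pearson interval 8.66 to 49.1%). Over the whole replicate 8 list 47.9% of summits were shared. In replicate 9 it was found for 3 of 5, 1 of 3 and 1 of 2, together 5 of 10 (50%, 95% Clopper-Pearson interval 18.7 to 81.3%), beside 76.6% over the whole list. Both shares were below those of the whole lists, but both intervals included them. The replicate 8 share was larger, as was that of its list, with lists of equal length or a wider distance. With equal numbers of summits in both lists it was 5 of 11 (45.5%), beside 66.7% of the list, and within 500 bp it was 8 of 20 (40%), beside 55.5%. In replicate 9 the equal lists gave 5 of 10 (50%), beside 66.7%, and 500 bp gave 7 of 10 (70%), beside 87.7%. The intervals cover counting error only, and summits of 1 gene are neighbours, not replicates.

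RUNX summits also had lower median scores than the lists they came from. This rests on 20 and 10 summits that are not replicates, and no interval was taken. The median score of RUNX summits was 7.06 in replicate 8, beside 8.20 over the list, and 8.20 in replicate 9, beside 10.5. In each library 30% of RUNX summits scored 10 or more, compared with 41.7% of all replicate 8 summits and 51.6% of all replicate 9 summits. Among the replicate 8 members with such a score, 4 of 6 were shared, beside 79.6% of the list. Among those with a lower score, 1 of 14 was shared, beside 25.2% of the list. In replicate 9 the counts were 3 of 3, beside 86.6%, and 2 of 7, beside 66.1%. The strongest unshared summits were at 36180228 for RUNX1, 45388374 for RUNX2 and 25241017 for RUNX3 in replicate 8, and at 36237969, 45528249 and 25240784 in replicate 9.

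The 5 shared pairs were placed 33 to 85 bp apart, with a median of 77 bp, beside a median of 52 bp over all 21518 pairs. Replicate 9 lay at the higher coordinate in the pairs at 36208509 and 45413678, by 57 and 83 bp, and at the lower coordinate in the other 3. The members nearest to the limit were the RUNX3 pair at 85 bp on the inside and, on the outside, the RUNX1 summits 202 bp apart and the RUNX3 summits 233 bp apart. Spearman's rho between the scores of the 5 pairs was 0.30, beside 0.728 over all pairs. The 5 pairs lie in 3 genes of 1 pair of libraries, and this value is a description. The RUNX1 pairs kept 1 order in both libraries, with the pair at 36208509 highest and that at 36236428 lowest.

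**Figure D4:**
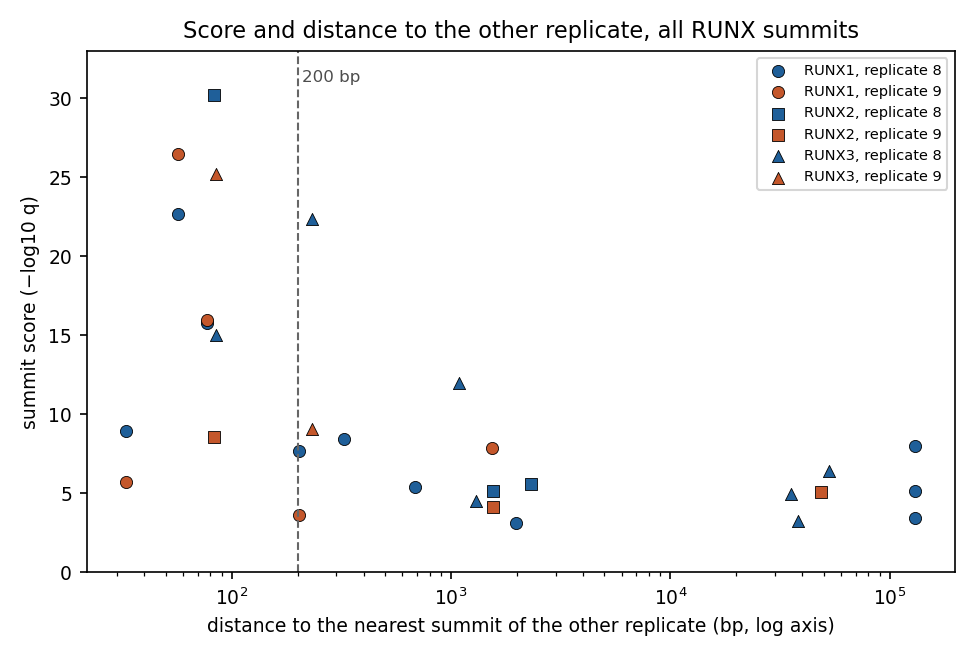
Score of every RUNX summit (y axis, −log10 q) by its distance in bp to the nearest summit of the other replicate (log x axis), with shape for the gene, blue for replicate 8, orange for replicate 9 and a dashed line at 200 bp. The 10 shared members lie between 33 and 85 bp. Of the 7 members at least 35459 bp from the other library, 6 are of replicate 8 and none scores above 8.01.

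When the summits of both libraries were pooled and joined up to 200 bp apart, RUNX1 had 12 sites, RUNX2 5 and RUNX3 8, of which 3, 1 and 1 were in both libraries. Joined up to 2500 bp apart, RUNX1 had 5 sites, of which 4 were in both libraries and 1 was of replicate 8. RUNX2 had 3 sites, of which 2 were in both and 1 was of replicate 9. RUNX3 had 4 sites, of which 1 was in both and 3 were of replicate 8. The joining distance of 2500 bp was chosen after the values were seen. The longer list belongs to replicate 8. When only its strongest summits were kept, in the number of the replicate 9 list, replicate 8 had 6 summits in RUNX1, 1 in RUNX2 and 4 in RUNX3, beside 5, 3 and 2 in replicate 9.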

How the data were processed

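HA-PSF-TFE3 was profiled by ChIP-seq in 2 libraries of doxycycline-treated HK-2 cells, with 1 input library. Per the labels, the authors called peaks with MACS2 on hg19, and the study describes calling each library against the input, without pooling. The deposited values are 1 summit per peak with a score, the −log10 of the q-value that MACS2 writes, which is not normalised between libraries. The study also names hg38, and gives the cutoff in one place as a q-value and in another as a p-value, which leaves the exact settings uncertain. In replicates 8 and 9, 364 and 262 summits had positions larger than the length of their hg38 chromosome, so the lists are not on hg38, and hg19 was taken from the labels. No genome of that build was at hand.

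The members and lists were chosen with earlier results of these data known. A summit belonged to a gene if its start lay in the window. The windows less 20 kb measured 262, 223 and 66 kb, and the RefSeq genes of GRCh38.p14 measure 261.5, 222.8 and 65.6 kb, from which strand was also taken. Every summit of these genes is named. Distances between lists were computed on the same chromosome and checked against an exhaustive search on simulated lists. Shares have 95% Clopper-Pearson intervals. Background densities used each chromosome up to its last summit. The alternatives were matching within 50 or 500 bp, minimum scores of 5 and 10, equal numbers of summits, counting summits under 500 bp apart once, windows without the flanks, bins of 20 kb, groups joined up to 5 kb, and leaving out each library. The lists hold no read counts, and the read totals that the study states for both ChIP libraries were not used here. A summit missing from a list did not pass the authors' threshold there. Scripts ran in Python 3.11.15 with pandas 2.3.3, scipy 1.17.1, matplotlib 3.10.9 and numpy 2.4.6.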

Additional observations from a re-analysis of the deposited data

How the results depend on the processing

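Of 74 values recomputed under the alternatives, 52 stayed within 1.5 times the count, the interval or the spread of the value reported, and 22 moved. Some of the 52 could not have moved under these rules, so the tally overstates how stable the results are. A single library always lies within the SD of the mean of both. Lists of equal length leave replicate 9 whole, so its summit counts per gene were bound to stay. With a minimum score of 10, the replicate 8 summits fell to 2 for RUNX1, 1 for RUNX2 and 3 for RUNX3, and the replicate 9 summits to 2, 0 and 1. The bins with a summit then fell to 2 for RUNX1 in either library, to 1 for RUNX2 and 1 for RUNX3 in replicate 8, and to 0 for RUNX2 in replicate 9. With a minimum score of 5, RUNX3 kept 4 replicate 8 summits, and the median score of the replicate 8 members rose to 8.43. With equal numbers of summits in both lists, replicate 8 kept 6 summits in RUNX1, 1 in RUNX2 and 4 in RUNX3. These moves follow from the removal of weak summits. The share of members shared fell to 5% in replicate 8 and 10% in replicate 9 within 50 bp, and was 50% and 100% when a minimum score of 10 was applied to both lists, on 6 and 3 members, beside 58.8% and 76.2% of the lists so reduced. Joining summits of both libraries up to 500 or 2500 bp apart, distances chosen after the data were seen, gave 4 and 4 sites in both libraries for RUNX1, 1 and 2 for RUNX2, and 2 and 1 for RUNX3. Leaving out a library gave 5 to 10 summits for RUNX1, 3 in either case for RUNX2 and 2 to 7 for RUNX3, so the RUNX3 mean rests on replicate 8. No paired analysis was possible because no result comes from a test and the input has no list here. Alternatives for transcription starts, motifs at summits and the RUNX partner genes were not run, since no annotation or genome of build hg19 was used here. The lists hold no read counts, so a summit seen in a single library may be under the threshold in the other.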

Other observations

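The shared sites in the 3′ part of RUNX1 continued beyond the window. Just outside its 3′ edge, replicate 8 had a summit at 36148300 and replicate 9 at 36148292. From there the successive sites of replicate 9 at 36180553, 36208566, 36236395 and 36260395 followed after 32.3, 28.0, 27.8 and, counted from the neighbouring summit at 36237969, 22.4 kb. In replicate 8 the longer gaps along the same stretch were 31.9 kb from 36148300 to 36180228 and 27.9 kb from 36180630 to 36208509. The next were 27.2 kb from 36209248 to 36236428 and 24.2 kb from 36236428 to 36260597. Short gaps lay between them, of 0.402 kb after 36180228 and 0.739 kb after 36208509, and in replicate 9 of 1.57 kb after 36236395. Gaps at least as long as each longer one made up 46.9% to 54.4% of those in the replicate 9 list, whose median was 27.8 kb. For replicate 8 they made up 35.7% to 41.5%, with a median of 15.6 kb. On the 5′ side the next summits of both libraries lay at 36551179 and 36551339. The values were picked after they were seen, and the spacing was not tested.

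The nearest summits on the 3′ side of RUNX2 were at 45576914 in replicate 8 and 45577045 in replicate 9, and the former had a score of 38.4, above every member.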
